A study of Mus musculus with 8 samples.

Results

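Livers of mice given carbon tetrachloride (CCl4) together with erlotinib at 2 mg were compared with livers of mice given vehicle only, to describe which transcripts still differed from untreated liver at the low dose. The members of the comparison were all genes whose probe carries 1 gene symbol in the platform annotation and passed a filter on dim signal, 11022 genes in all, read on 4 of the 8 arrays of the study (2 per group). The animals were male A/J mice. All mice were gavaged with 0.1 cc 3 times a week for 18 weeks and killed at week 19 after a washout of 1 week, although the source labels read week 18. The vehicle group received the carrier without CCl4. The CCl4 group received 40% CCl4 in olive oil, and both erlotinib groups received CCl4 with erlotinib labelled 2 mg or 5 mg. The labels give neither a body weight unit nor the route or the weeks of dosing for erlotinib, and they list no arm with erlotinib alone, so an effect of erlotinib by itself cannot be told apart from an effect on the CCl4 response. RNA came from frozen liver outside tumours. The titles of the vehicle arrays carry codes starting with OO and those of all other arrays codes starting with CT, and whatever these codes mark cannot be told apart from CCl4 exposure. Whether the paired arrays came from different mice is not labelled, so p-values describe the spread between arrays, which may be technical.

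CCl4 is activated by the cytochrome P450 Cyp2e1 in hepatocytes around the central vein, and its radicals kill these cells; repeated dosing leads to scarring, in which hepatic stellate cells become matrix-producing myofibroblasts and macrophages clear debris. Erlotinib blocks the kinase activity of Egfr, the receptor for epidermal growth factor, which hepatocytes carry in large amounts and which drives their proliferation. A mature male mouse hepatocyte also expresses a set of genes kept high by the pulses of growth hormone secreted in males, among them the major urinary proteins, small carriers of pheromones that are excreted in urine.

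Intensities were background-corrected, quantile-normalized and put on the log2 scale, and differences between groups were tested with limma in 1 model over the 4 groups. Calls were made where the p-value, adjusted over all 11022 genes by Benjamini-Hochberg, was under 0.05. Array medians before correction were 99.8 to 130, and 23% to 26.2% of the probes lay above the background of each array, taken as the 99th percentile of 1326 probes for olfactory receptor genes (odorant, vomeronasal or trace amine). By that limit 4398 tested genes lay below it on each of the 8 arrays. The hepatocyte transcripts Ttr, Apoa1, Fga, Serpina1c and Cps1 were bright on every array. The Alb probe was dim (6.62 to 7.58 on the log2 scale), and the Fgb probe (5.79 to 6.55) was above background on 3 of the 8 arrays. The cholangiocyte probes for Krt19, Krt7 and Sox9 were under background on all arrays. The spread of gene-wise differences was 0.18 (SD, log2) between the vehicle arrays, 0.21 between the arrays of CCl4 with erlotinib 2 mg, and 0.26 to 0.31 between arrays of these 2 groups. In a bulk sample, fewer cells of a type and less RNA per cell cannot be told apart.

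Against vehicle, 345 genes (3.13% of those tested) differed with CCl4 and erlotinib 2 mg. Of these, 189 were higher (1.71%) and 156 were lower (1.42%). At least 2-fold differences among the called genes numbered 71 (0.644%). The 2 groups did not overlap at any of the 345 called genes, but that alone is a weak criterion, since 42.3% of all tested genes had groups that did not overlap. The largest falls were in Serpina1e, Mup21 and Hsd3b5 and the largest rises in Lcn2, Ly6d and Orm2, as the plot of all genes shows. When arrays were scaled by their medians in place of quantile normalization, 30 genes were higher and 13 lower (69.8% higher, against 54.8%), and the SD between the arrays of CCl4 with erlotinib 2 mg was then 0.32 in place of 0.21. Leaving out vehicle array 1 left 72 higher and 64 lower calls, leaving out vehicle array 2 left 101 and 82, and leaving out array 1 of CCl4 with erlotinib 2 mg left 75 and 70.

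**Figure D1:**
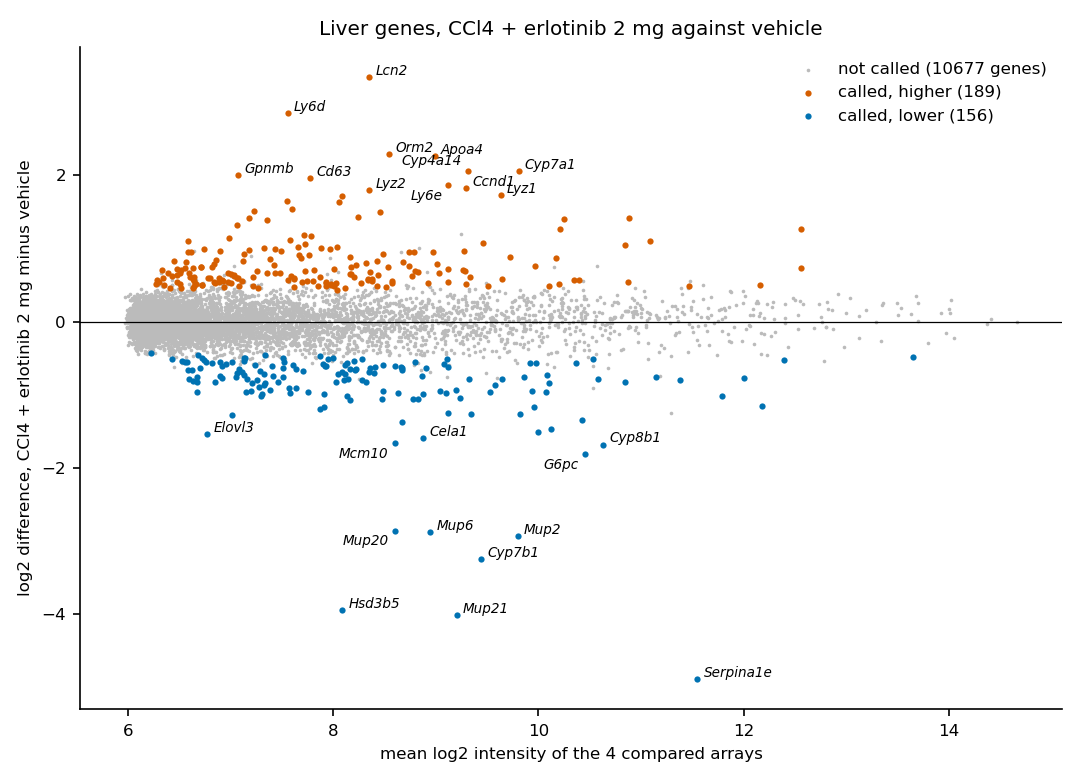
Log2 difference between CCl4 with erlotinib 2 mg and vehicle (y axis, 2 arrays per group) against the mean log2 intensity of the 4 arrays (x axis). Each point is 1 of 11022 genes, coloured where called (189 higher, 156 lower), and the 24 largest called differences are labelled; Serpina1e lies lowest at -4.88 and Lcn2 highest at 3.34.

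The largest fall was in Serpina1e. This gene, a paralogue of alpha-1-antitrypsin, read 14.21 and 13.77 on the vehicle arrays and 8.54 and 9.68 with CCl4 and erlotinib 2 mg. This is 29.5-fold lower (log2 difference -4.88, SE 0.37, adjusted p 6.84e-07 by limma; 0.0525 with an intensity-dependent prior), and the arrays of CCl4 alone lay between, at 11.25 and 10.03. The difference of 2 mg from CCl4 alone was -1.53 (adjusted p 0.014) and lost its call under 4 alternatives and with array 1 of CCl4 (-0.93, adjusted p 0.207) or array 1 of 2 mg (-0.96, adjusted p 0.268) left out. Hsd3b5, a male-specific keto-steroid reductase, read 10.34 and 9.79 with vehicle and 6.03 and 6.21 at 2 mg, both under background. Its fall was at least 12.6-fold (adjusted p 1.16e-09), and with CCl4 alone it was as dim, at 6.03 and 6.32. Cyp7b1, the oxysterol 7-alpha-hydroxylase of the alternative bile acid pathway, read 11.36 and 10.77 with vehicle and 7.78 and 7.86 at 2 mg (-3.25 ± 0.17 SE, adjusted p 1.48e-08).

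Of 15 listed major urinary proteins 5 were tested, and all 5 were lower against vehicle, as were 1.42% of all tested genes. Their median log2 difference was -2.87, where all tested genes had a median of -9.61e-06. Mup21 read 11.78 and 10.64 with vehicle against 7.03 and 7.37 at 2 mg, 16.1-fold lower (-4.01 ± 0.29 SE, adjusted p 4.45e-07). Mup2 read 11.40 and 11.12 against 7.53 and 9.14 (-2.93 ± 0.35 SE, adjusted p 0.000113), and a second probe gave -1.71. Mup6 read 10.50 and 10.26 against 6.85 and 8.17 (-2.87 ± 0.30 SE, adjusted p 2.85e-05). Mup20, the pheromone darcin, read 10.20 and 9.87 against 6.54 and 7.81 (-2.86 ± 0.28 SE, adjusted p 1.24e-05). The groups were far apart for each of the 4, and array 2 of the erlotinib pair was the brighter of the 2 for all of them. Mup5, added to complete the count after its values were seen, fell by 0.67 (adjusted p 0.00662). With CCl4 alone the 5 members had a median of -3.34 against vehicle, and the difference between 2 mg and CCl4 alone was called for 0 of 5 (limma; 3 with array 1 of 2 mg left out). Probes for such similar paralogues can share signal, so the values of single Mup genes are uncertain. With median scaling 3 of the 5 were still called, and with an intensity-dependent prior Mup2, Mup6 and Mup20 were not.

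The sequence just upstream of the start of these genes shows how alike the family is. The 250 bases before the RefSeq start (GRCm38.p6) are printed for the 3 of these genes with an entry, because they show how similar the members are, 5′ to 3′ on the strand of each gene, with the longest run of bases common to all 3 windows in capitals. Mup2 lies at chr4:60139857-60140106 on the minus strand, Mup6 at chr4:60003231-60003480 on the plus strand and Mup21 at chr4:62150842-62151091 on the minus strand.
Mup2: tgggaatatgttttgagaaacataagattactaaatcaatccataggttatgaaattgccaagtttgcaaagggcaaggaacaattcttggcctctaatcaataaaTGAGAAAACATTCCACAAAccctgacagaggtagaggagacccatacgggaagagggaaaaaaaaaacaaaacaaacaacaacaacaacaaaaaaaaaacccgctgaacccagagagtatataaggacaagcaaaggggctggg
Mup6: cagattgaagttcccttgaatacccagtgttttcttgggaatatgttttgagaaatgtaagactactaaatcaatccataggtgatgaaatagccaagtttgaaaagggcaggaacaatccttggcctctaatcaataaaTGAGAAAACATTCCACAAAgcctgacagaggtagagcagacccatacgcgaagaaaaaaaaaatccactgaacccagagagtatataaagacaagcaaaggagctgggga
Mup21: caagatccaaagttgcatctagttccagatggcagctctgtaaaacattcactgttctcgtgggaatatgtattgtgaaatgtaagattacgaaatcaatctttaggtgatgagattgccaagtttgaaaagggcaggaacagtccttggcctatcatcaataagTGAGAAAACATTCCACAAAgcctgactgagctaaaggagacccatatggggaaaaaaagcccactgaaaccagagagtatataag
The shared run of 19 bases occurred in the windows of 10 of 27025 genes with an entry (0.037%), all of them Mup genes. In local alignments the windows of Mup6 and Mup21 were identical at 83.3% of aligned columns, Mup2 and Mup6 at 79.6%, and Mup2 and Mup21 at 72.3%. The letters TTCNNNGAA, a form that STAT factors bind, were searched on both strands and are absent from all 3 windows. That motif occurred in 8.13% of all windows, in 0 of the 9 windows of the 12 largest falls and in 0 of the 7 windows of the 12 largest rises. At that share few or no matches are expected in so few windows, so the absence cannot be read as a result, and STAT binding was not tested.

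The list of male-biased hepatocyte genes overlaps with the genes above. Of its 19 tested members 9 were lower and 0 higher, with a median of -0.90, where 1.42% of all genes were lower and 1.71% higher. Mup20, Mup21 and Serpina1e are among the 9, so the count and the median partly reuse values already given. The count was 9 to 12 with each of the 4 compared arrays left out in turn and 7 with median scaling. Elovl3, an elongase of very long fatty acids, read 7.70 and 7.37 with vehicle and was under background on both arrays at 2 mg, a fall of at least 2.18-fold (adjusted p 1.69e-06). C8b, a terminal complement component, fell by 0.96 (adjusted p 0.00129). Susd4 and Nudt7, named to complete the count after their values were seen, fell by 1.27 and 1.15. Other members of the list, Cyp4a12a (-0.74, adjusted p 0.258) and Cyp2d9 (-0.61, adjusted p 0.352), missed the threshold. Of 11 female-biased genes 3 were higher and 0 lower, namely Cyp2b10 (0.98), Cyp2b13 (1.18) and the acyl-CoA thioesterase Acot3 (0.59). Acot3 lost its call without each of the 4 compared arrays (adjusted p 0.0731 to 0.169). The call of Cyp2b13 was lost without vehicle array 1 (0.72, adjusted p 0.500) or array 2 of 2 mg (0.64, adjusted p 0.425), and all 3 were lost with median scaling.

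Growth hormone acts through its receptor Ghr on hepatocytes, which release Igf1 and its carrier subunit Igfals. Ghr read 9.36 and 9.35 with vehicle, 8.14 and 8.45 at 2 mg, and 7.42 and 7.73 with CCl4 alone. It was 2.09-fold lower than vehicle (-1.06 ± 0.14 SE, adjusted p 0.000304) and 0.72 above CCl4 alone (adjusted p 0.0031). Igfals read 10.02 and 9.93 with vehicle, 8.47 and 8.95 at 2 mg, and 8.14 and 7.80 with CCl4 alone (-1.26 ± 0.16 SE against vehicle, adjusted p 0.000182). Both genes thus lay between the vehicle and CCl4 arrays with no overlap. Igf1 itself (-0.46, adjusted p 0.0617) missed the threshold, as did the feedback inhibitor Socs2 (-0.50, adjusted p 0.164). Within the list of 13 tested genes of this axis, Ghr and Igfals were the 2 called, where 3.13% of all genes were. Both calls were lost with median scaling. Against CCl4 alone, Ghr lost its call without array 2 of 2 mg (0.56, adjusted p 0.0622), and Igfals without array 2 of CCl4 (0.57, adjusted p 0.107) or array 2 of 2 mg (0.50, adjusted p 0.113).

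Several other transcripts were among the 12 largest falls. G6pc, the glucose-6-phosphatase that releases glucose into blood, read 11.51 and 11.21 with vehicle and 10.06 and 9.04 at 2 mg (-1.81 ± 0.26 SE, adjusted p 0.000729; 0.177 with an intensity-dependent prior). Cela1, an elastase, read 9.55 and 9.79 against 8.04 and 8.13 (-1.59 ± 0.14 SE, adjusted p 3.49e-06) and kept its call under all alternatives run. Mcm10, a replication factor, read 9.46 and 9.40 against 7.18 and 8.37 (-1.66 ± 0.30 SE, adjusted p 0.00375) and lost its call without vehicle array 1 (-1.62, adjusted p 0.0632) or array 1 of 2 mg (-1.06, adjusted p 0.0927). Cyp8b1, the sterol 12-alpha-hydroxylase that sets the mix of bile acids, read 11.40 and 11.55 with vehicle, 10.17 and 9.42 at 2 mg, and 9.28 and 7.16 with CCl4 alone. Its difference from vehicle (-1.68 ± 0.42 SE, adjusted p 0.0359) was no longer called with any of the 4 compared arrays left out (adjusted p 0.0859 to 0.274).

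**Figure D2:**
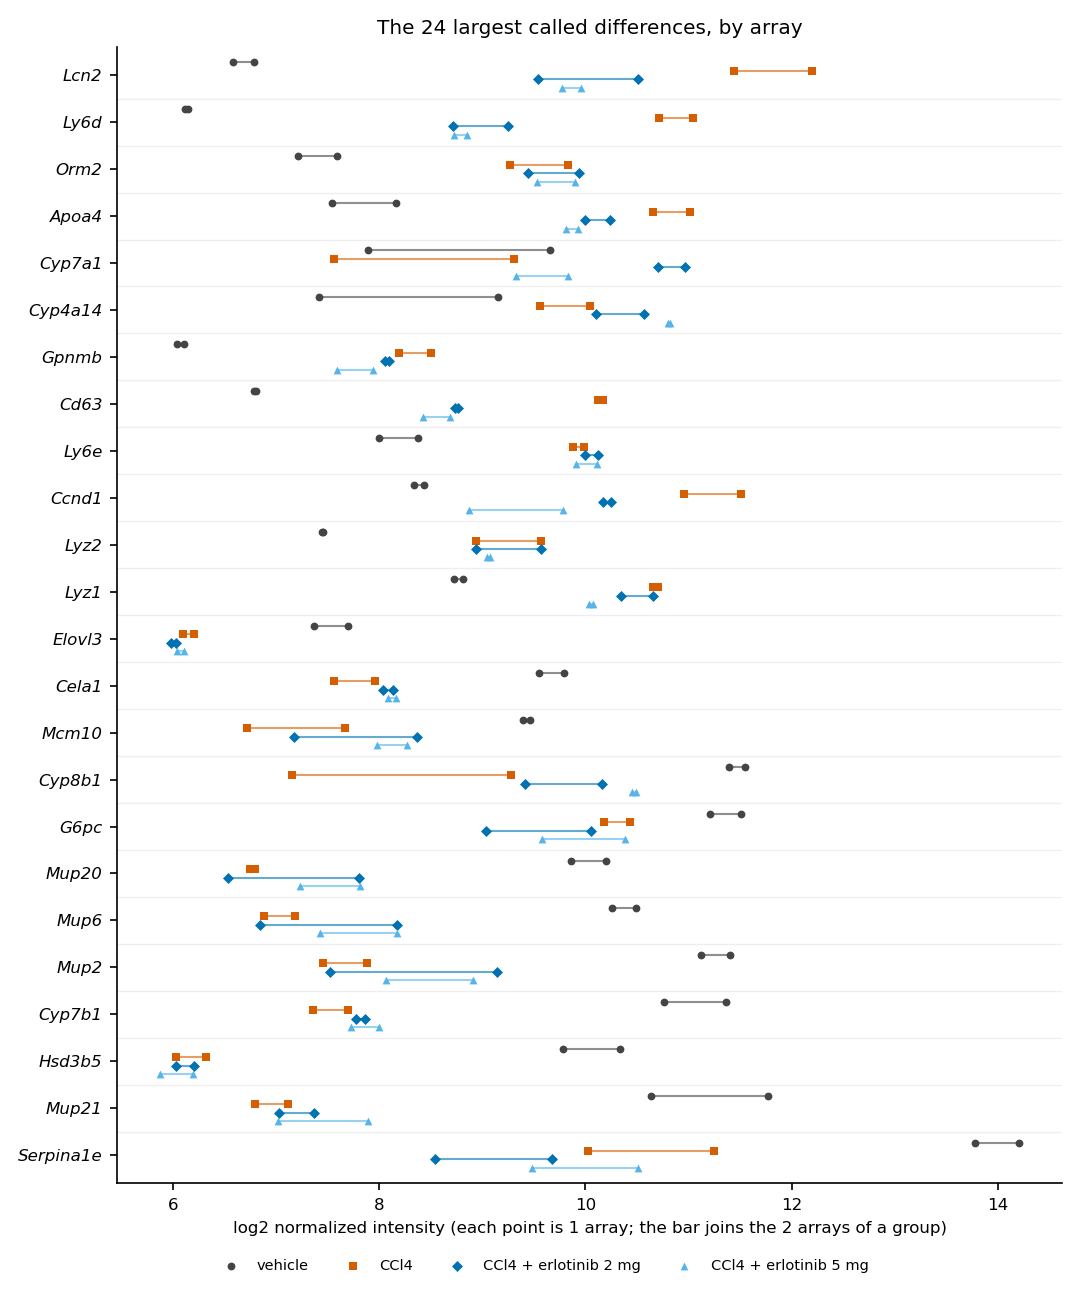
Log2 normalized intensity (x axis) of the 12 largest called rises and the 12 largest called falls of CCl4 with erlotinib 2 mg against vehicle, with 1 point per array and a bar joining the 2 arrays of each of the 4 groups. For most of the falls, such as Hsd3b5 and Elovl3, the arrays of 2 mg lie beside those of CCl4 alone, whereas for Lcn2, Ly6d, Cd63 and Apoa4 they lie between vehicle and CCl4 alone.

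The largest rise was in Lcn2, lipocalin 2, an iron-siderophore binder released by stressed hepatocytes and neutrophils. It read 6.78 and 6.58 with vehicle, 10.51 and 9.54 at 2 mg, and 11.44 and 12.20 with CCl4 alone. This is 10.1-fold above vehicle (3.34 ± 0.25 SE, adjusted p 5.55e-07) and 1.80 below CCl4 alone on the log2 scale (adjusted p 0.00016; 0.055 with an intensity-dependent prior). Ly6d, a GPI-anchored surface protein, was under background on both vehicle arrays and read 9.25 and 8.71 at 2 mg, a rise of at least 5.85-fold (adjusted p 2.02e-08), with 10.72 and 11.05 with CCl4 alone. Cd63, a tetraspanin of late endosomes, read 6.79 and 6.80, then 8.76 and 8.74 at 2 mg and 10.12 and 10.17 with CCl4 alone (1.96 ± 0.12 SE, adjusted p 6.69e-08), and a second, dimmer probe gave 0.74. For these 3 genes the 2 mg arrays lay between vehicle and CCl4 alone, apart from both.

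Orm2 and Ly6e were about as high at 2 mg as with CCl4 alone. The acute-phase protein orosomucoid 2 (Orm2) read 7.21 and 7.60 with vehicle, 9.94 and 9.45 at 2 mg, and 9.27 and 9.83 with CCl4 alone (2.29 ± 0.20 SE against vehicle, adjusted p 2.53e-06). Ly6e, an interferon-inducible surface protein, read 8.0 and 8.38, then 10.12 and 9.99, against 9.98 and 9.88 with CCl4 alone (1.87 ± 0.14 SE, adjusted p 4.58e-07). The difference between 2 mg and CCl4 alone was 0.14 for Orm2 (adjusted p 0.82) and 0.12 for Ly6e (adjusted p 0.76). Mt1, a zinc-binding metallothionein, was also above vehicle. It read 12 and 11.85 with vehicle and 13.20 on both arrays at 2 mg (1.27 ± 0.20 SE, adjusted p 0.00135). Its call was lost with the authors' processed values and with median scaling. Across all tested genes, 1.71% were higher and 1.42% lower. Of 23 tested acute-phase and metallothionein genes, Lcn2, Orm2 and Mt1 were higher and Itih4 was lower (-0.53, adjusted p 0.0499; 0.108 to 0.514 without either vehicle array or array 1 of 2 mg).

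Lipid-handling genes were also among the rises. Apoa4, an apolipoprotein of triglyceride-rich particles, read 7.55 and 8.16 with vehicle and 10.24 and 10.00 at 2 mg (2.27 ± 0.17 SE, adjusted p 6.92e-07). It was the 1 called member of 15 tested apolipoproteins. Cyp4a14, a fatty acid hydroxylase induced through PPAR-alpha, read 7.41 and 9.16 against 10.57 and 10.10 (2.05 ± 0.35 SE, adjusted p 0.00244; 0.313 with an intensity-dependent prior), and the call was also lost without array 1 of 2 mg (1.82, adjusted p 0.0746). Cyp7a1, the rate-limiting enzyme of bile acid synthesis, read 9.66 and 7.90 with vehicle, 10.97 and 10.70 at 2 mg, and 9.30 and 7.56 with CCl4 alone. It was 2.06 ± 0.47 SE above vehicle (adjusted p 0.0204), but the vehicle arrays differed widely between themselves and without vehicle array 2 the difference was 1.17 (adjusted p 0.329). Without array 1 or array 2 of 2 mg the adjusted p was 0.217 and 0.0855. Among 22 tested genes of bile acid synthesis and transport, Cyp7a1 and the phospholipid exporter Abcb4 (0.68, adjusted p 0.0347) were higher. Cyp7b1, Cyp8b1 and the sterol exporter subunit Abcg8 (-0.98, adjusted p 0.0118) were lower. By comparison, 1.71% of all tested genes were higher and 1.42% lower. With median scaling Cyp7b1 alone was called, and 1 or 2 genes of the list were called with each compared array left out.

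Part of the macrophage list was higher. Of 16 tested Kupffer cell and macrophage markers 7 were higher and 1 lower (median 0.44), against 1.71% and 1.42% of all genes. The higher count was 7 without array 2 of 2 mg, 5 without any other compared array and 5 with median scaling, and Mrc1, the lower gene named further on, was called in 0 of these fits. The summed linear intensity of the 16 was 2397 and 2466 on the vehicle arrays, 5217 and 4131 at 2 mg, and 6230 and 6069 with CCl4 alone. Gpnmb, a lysosomal glycoprotein of lipid-laden macrophages, was under background on both vehicle arrays and read 8.05 and 8.10 at 2 mg, a rise of at least 3.12-fold (adjusted p 3.36e-07). The other 3 Gpnmb probes were at background on at least 7 of the 8 arrays. Lyz2, myeloid lysozyme, read 7.46 and 7.45 with vehicle against 9.57 and 8.94 (1.80 ± 0.19 SE, adjusted p 3.42e-05), and its near-identical neighbour Lyz1 read 8.81 and 8.72 against 10.65 and 10.35 (1.73 ± 0.12 SE, adjusted p 4.45e-07). The signal of the 2 lysozyme genes may not be separable. With CCl4 alone Lyz2 read 9.57 and 8.94, level with the 2 mg arrays. Cd9 rose by 1.0 (adjusted p 0.00108). The complement C1q chains C1qb (0.88) and C1qc (0.75), the lipid receptor Trem2 (0.64) and the fallen mannose receptor Mrc1 (-0.55) complete the count and were named after their values were seen. The remaining chain C1qa read 6.33 and 6.67 with vehicle and 6.81 and 6.64 at 2 mg, so its groups overlapped. The resident Kupffer cell receptors Clec4f (0.18, adjusted p 0.638) and Vsig4 (0.10, adjusted p 0.861) were above background on all arrays and not called. All 3 probes for Adgre1, which encodes F4/80, were at background.

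Most markers of other blood cells were too dim to be compared. Above background on any array were 3 of 7 neutrophil, 2 of 9 T and NK cell, 0 of 3 B cell and 2 of 2 erythroid markers, and of the 5228 genes under background in both groups 0 were called. None of 7 neutrophil, 9 T and NK cell, 3 B cell and 2 erythroid markers was called against vehicle by limma, and the medians of the 4 lists were 0.02, -0.03, -0.02 and -0.52. At an unadjusted p under 0.05 1 neutrophil marker was higher, both erythroid markers were lower and 0 T, NK or B cell markers passed. That limit was passed by 1415 of all 11022 genes in either direction. Of 13 antigen presentation genes, the class II chain H2-Eb1 was called (0.99, adjusted p 0.0249), and its call was lost with each of the 4 compared arrays left out (adjusted p 0.0669 to 0.272). The class II invariant chain Cd74 had a difference of 1.19 with an adjusted p of 0.0526, and gained a call in 4 of 16 alternatives. The adhesion molecule Vcam1 rose by 0.69 (adjusted p 0.00402) whereas the chemokine Cxcl12 had probes that disagreed. The brightest fell by 0.95 (adjusted p 0.000277), the other 2 that were above background on all arrays gave 0.13 and 0.26, and the mean of its probes was not called (-0.15, adjusted p 0.636).

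The interferon response list had 4 of 28 tested genes higher and 0 lower (median 0.17), against 1.71% and 1.42% of all genes. Usp18, which removes the ubiquitin-like protein Isg15, read 6.67 and 6.79 with vehicle and 8.86 and 7.90 at 2 mg (1.65 ± 0.23 SE, adjusted p 0.000363). Ifi27 read 9.47 and 9.63 against 11.25 and 10.66 (1.40 ± 0.16 SE, adjusted p 6.6e-05). The transcription factor Irf1 rose by 0.70 and the antiviral enzyme Rsad2 by 0.50. Usp18 and Ifi27 were called with every compared array left out and with median scaling, whereas Irf1 and Rsad2 were lost without vehicle array 1 (adjusted p 0.0991 and 0.201).

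A minority of the matrix and stellate cell genes tested was above vehicle. Among stellate cell and myofibroblast markers 4 of 17 were higher and 0 lower (median 0.17), among basement membrane and matrix glycoproteins 4 of 13 (median 0.26), and among crosslinking and turnover genes 3 of 14 (median 0.21). Of 6 interstitial collagens 1 was higher. By comparison, 1.71% of all tested genes were higher and 1.42% lower. Col4a1, a chain of basement membrane collagen, read 7.35 and 7.05 with vehicle, 8.25 and 8.26 at 2 mg, and 8.56 and 8.67 with CCl4 alone (1.06 ± 0.12 SE, adjusted p 8.32e-05). The matrix metalloproteinase Mmp2 was under background on both vehicle arrays and read 7.36 and 7.12 at 2 mg, a rise of at least 1.75-fold (adjusted p 0.000249). Dcn, the proteoglycan decorin, read 8.22 and 8.40 against 9.07 and 9.46 (0.95 ± 0.15 SE, adjusted p 0.00129), but its call was lost with the mean of its probes. The matrix glycoprotein Sparc read 8.03 on both vehicle arrays against 9.03 and 8.86 (0.92 ± 0.12 SE, adjusted p 0.000265). Lum and the stellate cell globin Cygb both rose by 0.75, the tropomyosin Tpm1 by 1.11, biglycan (Bgn) by 0.71 and the collagen chain Col6a1 by 0.84. For Mmp2, Dcn and Lum the difference between 2 mg and CCl4 alone was 0.26, 0.39 and -0.06, none called. Without vehicle array 1 the counts fell to 2 of 17, 2 of 13 and 1 of 14, and with median scaling Mmp2 was the 1 gene of the 3 lists still called.

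The fibrillar collagens were near the detection limit on this platform. Col1a1 was under background on both vehicle arrays (6.22 and 6.15), read 6.62 and 6.47 at 2 mg, and read 6.86 and 6.84 with CCl4 alone. Its difference from vehicle was 0.36 (95% interval 0.08 to 0.64, adjusted p 0.197). Col3a1 was under background on all arrays. Acta2, the smooth muscle actin of myofibroblasts, read 6.87 and 6.52 with vehicle, 7.70 and 6.93 at 2 mg, and 8.39 and 9.52 with CCl4 alone. It was 0.62 above vehicle (95% interval 0.04 to 1.21, adjusted p 0.337) and 1.64 below CCl4 alone (adjusted p 0.00081; 0.16 with an intensity-dependent prior). Timp1, the inhibitor of matrix metalloproteinases, was under background on both vehicle arrays and read 6.65 and 6.39 at 2 mg against 7.49 and 7.81 with CCl4 alone. Its differences were 0.35 from vehicle (adjusted p 0.269) and -1.14 from CCl4 alone (adjusted p 5.7e-05). Of TGF-beta family members and target genes, 0 of the 14 tested were called against vehicle by limma, and the fits that left out a compared array or scaled by medians also called 0. At an unadjusted p under 0.05, 3 of the 14 were higher and 0 lower, beside 1415 of all 11022 genes in either direction. Ccn2, a TGF-beta target, differed by 0.65 (adjusted p 0.134) and Tgfb1 by 0.22 (adjusted p 0.451). Under other alternatives Ccn2 gained a call in 3 of 16.

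**Figure D3:**
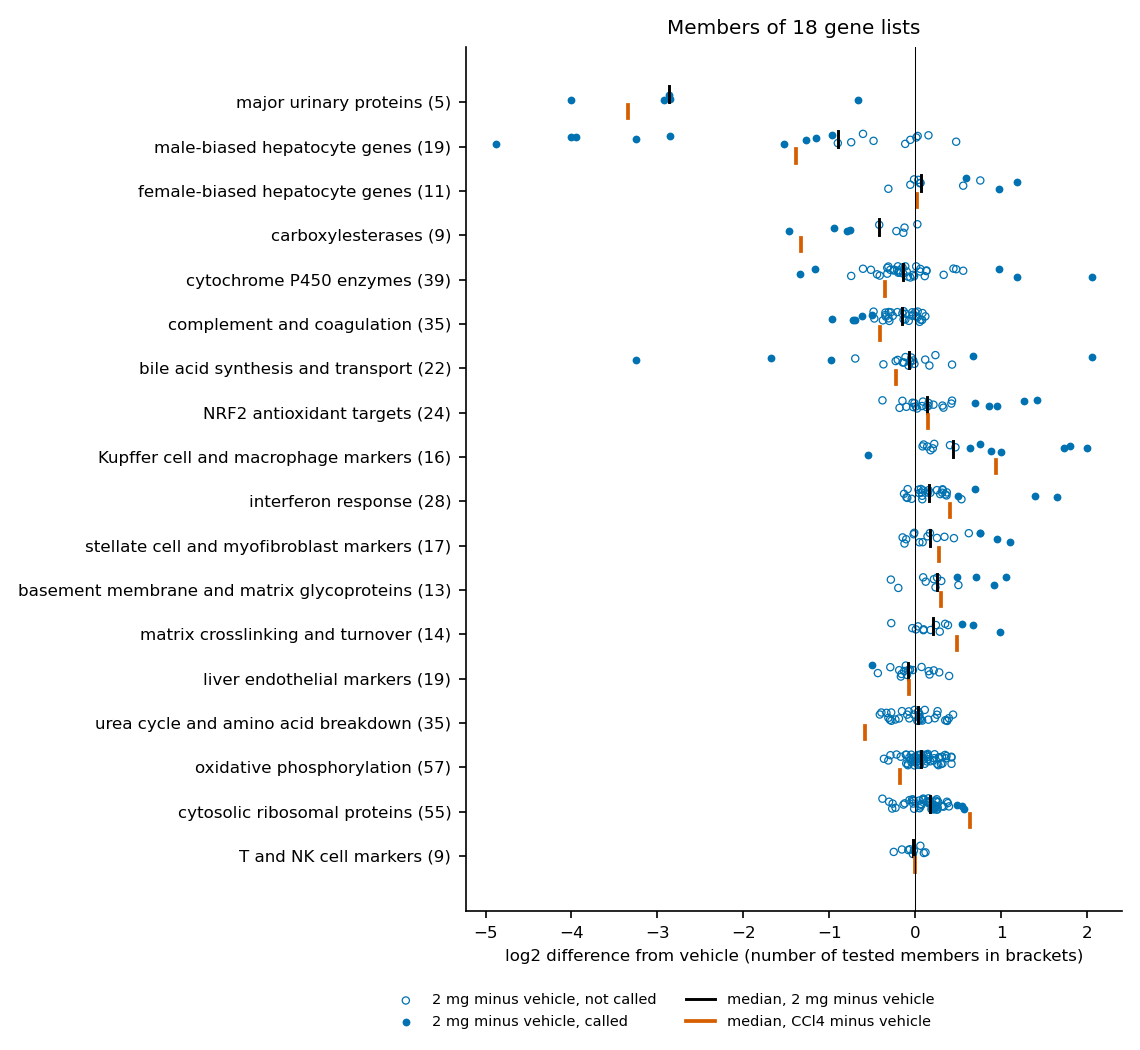
Log2 differences from vehicle (x axis) of the tested members of 18 gene lists (y axis, number of members in brackets). Circles are genes at CCl4 with erlotinib 2 mg, filled where called; black bars mark their median and orange bars the median for CCl4 alone, both measured against the same 2 vehicle arrays. The 5 major urinary proteins lie farthest left with a median of -2.87, and no member of the urea cycle or oxidative phosphorylation lists is filled.

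A few annexin, S100 and keratin genes were higher, as were 1.71% of all tested genes. Anxa2, an annexin that binds membranes and actin, read 7.16 and 7.30 with vehicle, 9.33 and 8.56 at 2 mg, and 10.76 and 11.78 with CCl4 alone (1.71 ± 0.25 SE, adjusted p 0.000823). S100a11 read 6.83 and 6.84, then 8.65 and 8.09, against 9.97 and 10.40 with CCl4 alone (1.54 ± 0.20 SE, adjusted p 0.000195). With Anxa5 (1.07) these were the 3 higher of 15 tested annexins and S100 proteins, and all 3 were called with every compared array left out. Anxa2 was not called with the authors' processed values or an intensity-dependent prior, nor Anxa5 with median scaling. Keratin 8 (Krt8) read 7.26 and 7.80 with vehicle and 9.21 and 8.70 at 2 mg (1.43 ± 0.23 SE, adjusted p 0.00173), but without vehicle array 1 or array 1 of 2 mg the adjusted p was 0.0584 and 0.0602. Its partner keratin 18 (Krt18) differed by 0.54 (adjusted p 0.309), and Krt8 was the 1 call among 7 keratins and ductular markers. All 4 genes lay below CCl4 alone, by 2.33 for Anxa2, 1.81 for S100a11, 1.53 for Anxa5 and 1.90 for Krt8, with adjusted p-values of 5.4e-05 or less.

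Among cell cycle genes 4 of 22 were higher, and of the Egfr family and its ligands 2 of 7 were lower. By comparison, 1.71% of all tested genes were higher and 1.42% lower. Ccnd1, the cyclin D1 that carries cells through the G1 phase and a textbook target of Egfr signalling, read 8.33 and 8.43 with vehicle, 10.17 and 10.25 at 2 mg, and 11.51 and 10.95 with CCl4 alone. It was 3.54-fold above vehicle (1.83 ± 0.22 SE, adjusted p 0.00011) and 1.02 below CCl4 alone (adjusted p 0.0058; 0.09 without array 1 of CCl4). The call against vehicle was lost with median scaling. The other cell cycle genes called were Cdkn1a (0.78), Cdkn2c (0.55) and Cdc20 (0.66), and the count was 1 or 2 without vehicle array 1, vehicle array 2 or array 1 of 2 mg. Other, dimmer Cdkn1a probes gave 0.05 and 0.70, and the call of Cdkn1a was lost with the mean of its probes. Egfr, the target of erlotinib, read 9.78 and 9.54 with vehicle, 8.36 and 9.09 at 2 mg, and 7.85 and 8.79 with CCl4 alone. Its fall of 0.93 ± 0.24 SE just passed the threshold (adjusted p 0.0457), and the adjusted p was 0.137 to 0.545 without either vehicle array or array 1 of 2 mg. The other 2 Egfr probes above background on all arrays gave -1.0 and -1.26. Errfi1, a feedback inhibitor of the receptor, fell by 0.78 (adjusted p 0.0241; 0.121 to 0.402 without the same arrays). Of the immediate early and MAPK feedback list, Junb was the 1 call in 14 genes (0.52, adjusted p 0.0235; 0.0657 to 0.274 with each compared array left out).

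Enzymes of drug metabolism moved in both directions. Of 39 tested cytochrome P450 genes 3 were higher and 2 lower, against 1.71% and 1.42% of all genes. Cyp2c50 read 11.32 and 10.87 with vehicle, 9.81 and 9.70 at 2 mg, and 8.35 and 8.21 with CCl4 alone (-1.34 ± 0.18 SE, adjusted p 0.000273), and the neighbouring paralogue Cyp2c37 fell by 1.17. Cyp2b10, an enzyme induced through the receptor CAR, read 6.50 and 6.87 with vehicle, 7.69 and 7.65 at 2 mg, and 7.08 and 6.99 with CCl4 alone (0.98 ± 0.15 SE, adjusted p 0.00129). The gene for CAR itself, Nr1i3, was lower by 0.76 (adjusted p 0.00187; 0.0533 without vehicle array 1). Carboxylesterases, which cleave ester drugs and lipids, were lower in 4 of 9 and higher in 0 (median -0.42), namely Ces3b (-1.47), Ces1f (-0.95), Ces1c (-0.80) and Ces1d (-0.76). A second Ces1c probe gave -0.19. Ces3b read 11.06 and 10.65 with vehicle, 9.0 and 9.77 at 2 mg, and 8.04 and 7.54 with CCl4 alone (adjusted p 0.0014). The count was 3 with each compared array left out, and 0 with median scaling. Members of the Cyp2c and Ces families are similar in sequence, so their single values are uncertain.

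Targets of the antioxidant factor NRF2 were higher in 5 of 24 and lower in 0 (median 0.14), against 1.71% and 1.42% of all genes. Gstm2, a glutathione transferase, read 10.11 and 10.24 with vehicle, 11.78 and 11.40 at 2 mg, and 10.97 and 10.89 with CCl4 alone. It was 2.67-fold above vehicle (1.42 ± 0.14 SE, adjusted p 1.51e-05) and 0.66 above CCl4 alone (adjusted p 0.0054; 0.0571 without array 2 of CCl4). Ephx1, microsomal epoxide hydrolase, read 9.45 and 9.71 against 10.93 and 10.76 (1.26 ± 0.18 SE, adjusted p 0.00047). Gsta1 (0.95), Gstm1 (0.86) and Srxn1 (0.69) complete the count, the last named after its values were seen. With vehicle array 1 or array 1 of 2 mg left out 2 of the list were called, and with median scaling Gstm2 alone was. Nnmt, nicotinamide N-methyltransferase, read 6.73 and 6.59 with vehicle and 8.37 and 7.72 at 2 mg (1.38 ± 0.21 SE, adjusted p 0.000919), and a dimmer probe gave 0.62.

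Much of intermediary metabolism was not called against vehicle. Of 35 tested genes of the urea cycle and amino acid breakdown and of 57 of oxidative phosphorylation, 0 were called by limma in either direction, against 3.13% of all genes, and their medians were 0.04 and 0.06. At an unadjusted p under 0.05, 5 of the 35 were higher and 5 lower, and 11 of the 57 were higher and 1 lower. Of all 11022 genes, 1415 passed that limit in either direction. Leaving out a compared array gave at most 1 call in the first list and 0 in the second. Fatty acid oxidation had 2 of 31 higher (Cyp4a14 and Acot3), and cytosolic ribosomal proteins 3 of 55 higher (Rpl35, Rps7 and Rps16, by 0.49 to 0.56), of which at most 1 was called with a compared array left out. The complement and coagulation list had 5 of 35 lower and 0 higher, with F13b at -0.73, F11 at -0.70 and Klkb1 at -0.62. That count was 1 without vehicle array 1, 2 without vehicle array 2 or array 1 of 2 mg and 0 with median scaling. Against CCl4 alone, 952 genes were called (8.64%), 461 higher (4.18%) and 491 lower (4.45%). With median scaling these were 59 and 98. In that comparison 19 of the 35 urea cycle and amino acid genes were higher and 0 lower (median 0.53; 16 to 18 with an array of either group left out, 11 with median scaling). Oxidative phosphorylation had 11 of 57 higher (0 with median scaling), fatty acid oxidation 14 of 31 (1 with median scaling) and complement and coagulation 8 of 35 (1 with median scaling). Of the ribosomal proteins 27 of 55 were lower and 0 higher (median -0.39; 20 to 29 with an array left out, but 1 with median scaling). Tubulins and actin cytoskeleton genes were lower in 10 of 20 (7 with median scaling), and cytochrome P450 genes were higher in 15 of 39 (7 with median scaling).

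Several genes not called against vehicle lay apart from CCl4 alone. Cyp2e1, which activates CCl4, read 12.44 and 12.32 with vehicle, 12.09 and 12.39 at 2 mg, and 10.94 and 9.90 with CCl4 alone. At 2 mg it differed from vehicle by -0.15 (95% interval -0.62 to 0.32, adjusted p 0.865) and was 3.53-fold above CCl4 alone (adjusted p 5.4e-05). Cyp1a2, another pericentral P450, read 10.89 and 10.54, then 10.57 and 10.48 at 2 mg, against 8.70 and 8.15 with CCl4 alone (-0.19 from vehicle, 95% interval -0.53 to 0.15). Ddit3, the stress factor CHOP, read 7.09 and 7.01 with vehicle, 7.08 and 6.93 at 2 mg, and 9.35 and 9.79 with CCl4 alone. It differed from vehicle by -0.04 (95% interval -0.37 to 0.28) and was 5.91-fold below CCl4 alone (adjusted p 1.2e-07). The 2 mg and vehicle arrays of these 3 genes lay within or beside each other, and both CCl4 arrays lay apart.

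Hamp2, a hepcidin paralogue, read 9.75 and 10.61 with vehicle, 10.88 and 11.02 at 2 mg, and 7.28 and 7.62 with CCl4 alone. It was 11.3-fold above CCl4 alone (adjusted p 5.4e-07), and its difference from vehicle was 0.77 with a 95% interval of 0.22 to 1.31 (adjusted p 0.148). Against vehicle Hamp2 gained a call in 1 of 16 alternatives. Carbonic anhydrase 3 (Car3) read 11.46 and 11.31, then 11.05 and 10.88, against 9.0 and 7.16 with CCl4 alone, and the lipogenic factor Thrsp read 10.53 and 10.22, then 9.09 and 10.51, against 7.52 and 7.39. Neither was called against vehicle (-0.42 and -0.57, adjusted p 0.722 and 0.415), although the intervals reach -1.16 and -1.17 and Thrsp gained a call in 1 of 16 alternatives. Both were above CCl4 alone (7.39-fold and 5.08-fold), calls that were lost with an intensity-dependent prior (adjusted p 0.092 and 0.069). The Toll-like receptor partner Cd14 and the TWEAK receptor Tnfrsf12a, 0.47 and 0.39 above vehicle (adjusted p 0.33 and 0.204), were 6.51-fold and 4.54-fold below CCl4 alone (adjusted p 6.4e-07 and 1.7e-07). A miss of the threshold with 2 arrays per group does not show that these genes had returned to the vehicle level.

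**Figure D4:**
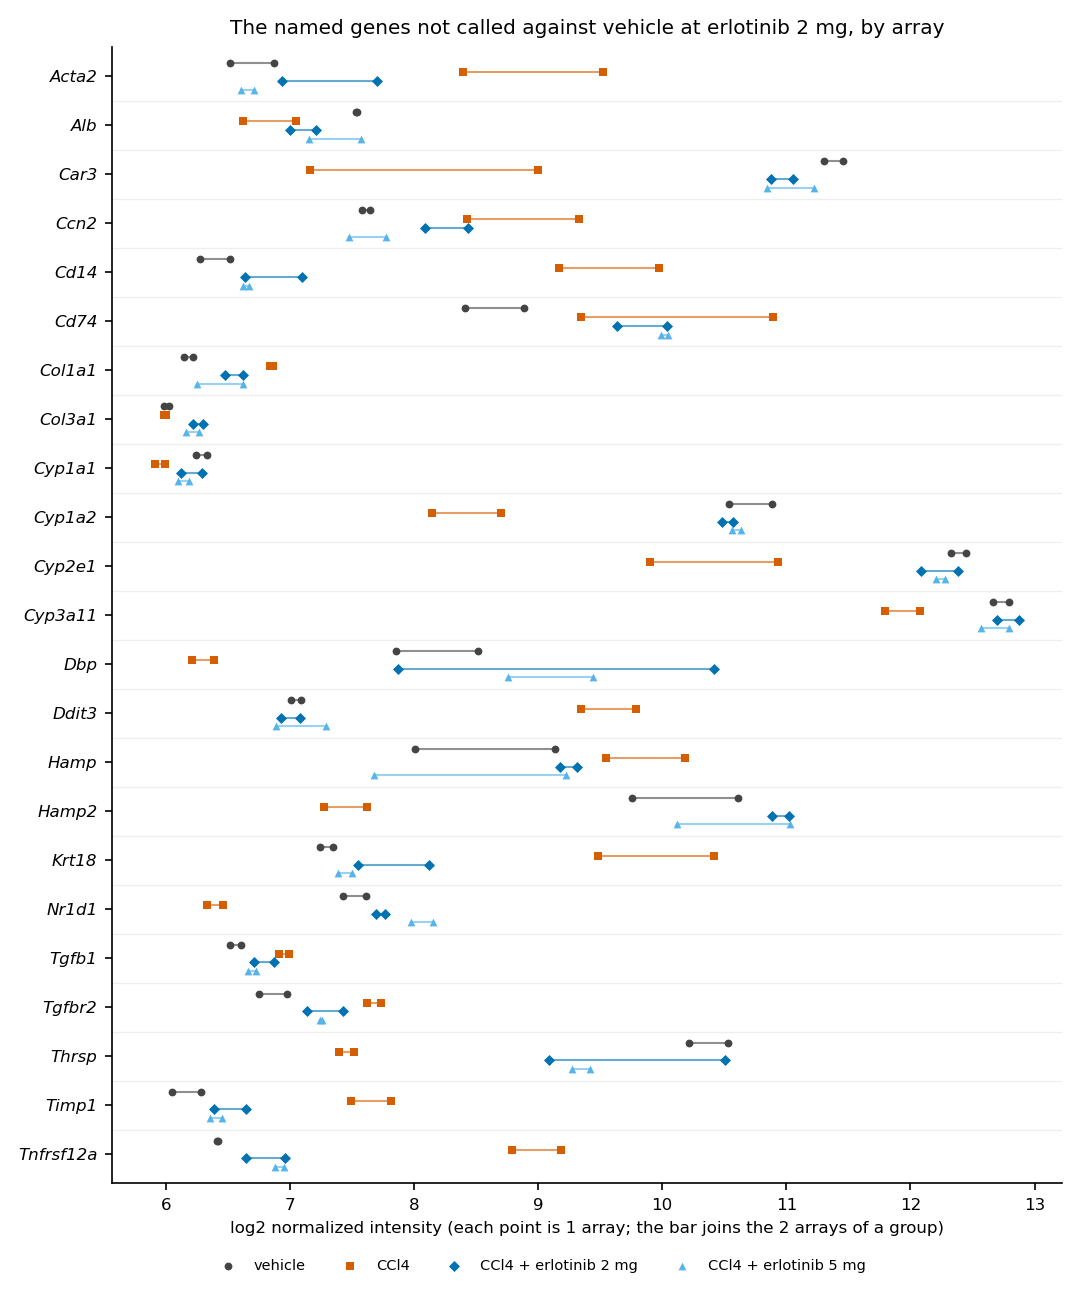
Log2 normalized intensity (x axis) of all 23 named genes that were not called between CCl4 with erlotinib 2 mg and vehicle, with 1 point per array and a bar joining the 2 arrays of each group. For 19 of them both arrays of CCl4 alone lie outside the range of the other 6 arrays, as for Ddit3 at 9.35 and 9.79 against 6.89 to 7.29 elsewhere. For Alb, Ccn2, Cd74 and Col3a1 they do not. The genes were chosen with earlier results of these data known, and the share over all tested genes was not computed, so the count describes these genes only.

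Some genes lay below or above both vehicle and CCl4 alone at 2 mg. Trp53inp1, a p53 target, read 8.45 and 8.03 with vehicle, 7.36 and 7.18 at 2 mg, and 8.24 and 8.61 with CCl4 alone. It was 0.97 ± 0.16 SE below vehicle (adjusted p 0.00171; 0.0559 without vehicle array 1) and 1.15 below CCl4 alone (adjusted p 0.00013). Gadd45g, a growth arrest gene, read 7.82 and 7.46, then 6.67 and 6.68, against 7.74 and 7.57 with CCl4 alone (-0.96 ± 0.16 SE from vehicle, adjusted p 0.00227; 0.0731 without vehicle array 1). The co-chaperone Bag3 (-1.06), the clock output repressor Nfil3 (-0.80) and the transcription factor Cebpb (-0.51) were also below both groups, and each call against vehicle was lost in 3 of the 4 fits that left out a compared array. In the other direction the elongase Elovl6 read 8.13 and 8.20 with vehicle, 8.94 and 8.88 at 2 mg, and 8.29 and 8.39 with CCl4 alone (0.75 ± 0.12 SE, adjusted p 0.00187). The desaturase Scd1 read 9.85 and 9.86 with vehicle, 10.34 and 10.35 at 2 mg, and 9.42 and 9.63 with CCl4 alone (0.49 ± 0.12 SE, adjusted p 0.0357; 0.126 to 0.223 with each compared array left out). All calls in this paragraph against vehicle were lost with median scaling.

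Between the 2 doses, at the same weeks and with the same CCl4, 2 of 11022 genes were called (0.0181%), both higher at 5 mg. An unadjusted p under 0.05 was found for 505 genes, no more than that limit would pass if no gene differed. Acot1, a cytosolic acyl-CoA thioesterase, read 8.50 and 8.79 at 2 mg and 9.70 and 9.51 at 5 mg (0.96 ± 0.15 SE, adjusted p 0.0439). Cyp4a31, a fatty acid hydroxylase, read 9.11 and 9.02 at 2 mg and 10.07 and 9.76 at 5 mg (0.85 ± 0.13 SE, adjusted p 0.0439). Neither was called at 2 mg against vehicle (-0.18 and 0.07). The count was 0 under 5 of the 7 alternatives that kept all 8 arrays, and with an array left out 0 to 4 were higher and 0 to 3 lower, the most without array 2 of 2 mg. For the largest differences from vehicle, the doses gave 0.89 for Serpina1e, 0.26 for Mup21, -0.16 for Lcn2 and -0.88 for Ccnd1 (5 mg minus 2 mg), none of them called. Cyp7a1 had the most negative dose difference of all tested genes, -1.26 (adjusted p 0.996).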

How the data were processed

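Total RNA from frozen mouse liver was labelled with Cy5 and hybridised to 8 Illumina bead arrays, 2 for each of 4 groups. The deposited non-normalized table holds a linear intensity per probe and array, without scaling between arrays by the authors as its medians of 99.8 to 130 show. A second deposited table holds intensity values that the authors normalized, by a method not given in the sources used here, with medians near 117; it served as an alternative. Precision is limited by the small number of arrays. The files used hold neither detection p-values nor slide numbers.

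Intensities were corrected with normexp (offset 50), quantile-normalized and put on the log2 scale with limma 3.58.1 in R 4.3.3. Of 25697 probes, 23978 had 1 gene symbol, 0 several and 1719 none in the platform annotation. Probes with a mean above the 40th percentile were kept (14438 with a symbol), and the brightest probe stood for each gene, which left 11022 genes. All 4 groups entered 1 model (lmFit and eBayes, with 4 degrees of freedom from the arrays and 11.87 from the prior), and p-values were adjusted over all genes by Benjamini-Hochberg. A fold is given as "at least" where all arrays of the dimmer group were under background, computed against that limit. Fold values otherwise are 2 to the power of the log2 difference. The procedure was tested on simulated data. Alternatives changed the background correction, the scaling, the filter, the prior, the choice of probe, the arrays fitted and the input table, and left out each array in turn.

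Named genes are the 12 largest called rises and the 12 largest called falls whose groups do not overlap, up to 4 called members of each of 50 gene lists, and a set of 45 genes, of which Fasn did not pass the filter. The members, lists and genes were chosen with earlier results of these data known. Comparisons with the CCl4 group share arrays with the main one, so only their own values are given. Promoter windows are from RefSeq, where 16 of the 24 largest changes had an entry.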

Additional observations from a re-analysis of the deposited data

Results flagged for a closer look

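Probes without a gene symbol in the platform annotation lie outside the comparison of named genes. Of 980 such probes tested in the same way, 35 differed between CCl4 with erlotinib 2 mg and vehicle, 18 higher and 17 lower. Their genes are not named here, and the signal was picked out because it lies in data that the comparison does not use.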

How the results depend on the processing

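Median scaling moved the counts against vehicle from 189 higher and 156 lower to 30 and 13, and all 43 were among the 345 genes called with quantile normalization. With it the SD between the arrays of CCl4 with erlotinib 2 mg was 0.32 in place of 0.21. Against CCl4 alone it moved 461 higher and 491 lower to 59 and 98. With each array left out in turn, the counts against vehicle ranged from 72 to 200 higher and from 64 to 173 lower; those against CCl4 alone from 244 to 462 higher and from 276 to 490 lower, the lowest without array 2 of CCl4. Between the doses, the 2 higher genes became 0 without background correction, with median scaling, with the authors' values, with only probes above the receptor background and with the mean of a gene's probes; they became 5 without a filter and 4 with an intensity trend and robust prior. With an array left out they ranged from 0 to 4 higher and from 0 to 3 lower. The other alternatives against vehicle gave 137 to 195 higher and 109 to 174 lower.

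Of 108 named genes called against vehicle, 20 kept the call in every alternative run, 88 lost it in at least 1, and 0 changed sign. Median scaling ended 83 of these calls, and leaving out vehicle array 1 ended 55. Among the 23 named genes not called, Cd74 gained a call in 4 of 16 alternatives, Ccn2 in 3, and Dbp, Hamp2 and Thrsp in 1 each. Detection p-values and slide numbers are not in the files used, so the planned filter and block on them were not run. No paired analysis was possible because the labels carry no replicate number shared between groups. A fit without an array takes the spread of its partner from the other groups. For the 4398 genes under background on every array, differences were not detectable.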

Other observations

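Among lists not described above, lysosomal proteins had 4 of 24 members higher against vehicle, led by Cd63, with Laptm5 (0.86), Lgmn (0.72) and Grn (0.51). Tubulins and actin cytoskeleton genes had 4 of 20 higher, with Tmsb10 (0.91), Tmsb4x (0.61) and Capg (0.52) beside Tpm1. The unfolded protein response had 1 higher (Fkbp11, 0.56) and 1 lower (Herpud1, -1.01) of 24. Cholesterol synthesis had 2 of 17 lower, Mvd (-0.75) and Hsd17b7 (-0.78). Of 19 liver endothelial markers Dnase1l3 was lower (-0.50, adjusted p 0.0442; 0.148 to 0.274 with each compared array left out). Of 11 oncofetal and tumour-associated genes 3 were higher, Lcn2, Ly6d and the Golgi protein Golm1 (0.72). Values in brackets are log2 differences from vehicle. Across all tested genes, 1.71% were higher and 1.42% lower. With median scaling Cd63, Lcn2 and Ly6d kept their calls and the other genes named here lost theirs, and without vehicle array 1 the counts were 3 lysosomal and 1 tubulin or actin gene higher. Grn lost its call without each of the 4 compared arrays, and Capg, Tmsb4x, Fkbp11 and Herpud1 each lost theirs without 3 of them.

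Clock outputs varied within groups. Dbp read 8.52 and 7.86 with vehicle, 7.87 and 10.42 at 2 mg, and 6.39 and 6.21 with CCl4 alone, and its difference from vehicle of 0.95 was not called (adjusted p 0.455). The labels give no time of day for the killing. Of 17 clock genes, Nfil3 and Noct (-0.63, adjusted p 0.0135) were lower against vehicle. The count was 0 without either vehicle array and with median scaling, and without array 1 of 2 mg 2 clock genes were higher and 1 lower.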
